A study of Homo sapiens with 12 samples.

Results

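The genes of the proteasome were examined in oral squamous cell carcinoma (OSCC) cells cultured with and without rapamycin. The set was a list of 40 genes chosen by name, with no threshold on a measured value but with earlier results of these data known, out of 58302 gene identifiers in the count table. It held 14 subunits of the constitutive 20S core, 17 subunits of the 19S regulatory particle, 3 immunoproteasome subunits, 4 proteasome activators, 1 inhibitor and the transcription factor gene NFE2L1. All 40 were among the 15826 genes with enough counts to be tested.

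The proteasome degrades proteins that carry ubiquitin chains. Its 20S core is a barrel of alpha and beta subunits with the cutting sites inside, and the 19S particle on its ends binds ubiquitin, removes it and unfolds the protein with a ring of ATPases. Interferon-responsive cells can swap the catalytic beta subunits for immunoproteasome subunits, which favour peptides suited to antigen presentation, and NFE2L1 (NRF1) activates proteasome genes when proteasome capacity falls.

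RNA-seq comprised 4 libraries, of which 2 came from cells given 100 nM rapamycin, an mTOR inhibitor used here to induce autophagy, and 2 from untreated control cells. MeRIP-seq, which sequences RNA pulled down with an antibody against m6A beside the input RNA, comprised 8 libraries of the established OSCC lines HSC3 and CAL33, with and without 100 nM rapamycin for 3 days, and gave 1 peak list for each line and treatment. The titles number the RNA-seq libraries 1 and 2 in each treatment. By the labels of the m6A libraries, number 1 is HSC3 and number 2 is CAL33, but by those of the RNA-seq libraries HSC3 is the line of both rapamycin libraries and CAL33 that of both controls. No cell line was therefore assigned to an RNA-seq library, and where the RNA-seq labels hold, treatment and cell line cannot be told apart. The time of treatment is not given for RNA-seq, and nothing says that the libraries came from separate cultures. The p-values can therefore not be taken to measure a spread between cultures.

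Total counts ranged from 18492273 to 23763098 per library, and mitochondrial genes took 5.71% to 7.94% of them. All 8 squamous epithelial markers passed the filter, with a summed level of 878 and 1081 CPM (read counts scaled to library size) in the number 1 libraries with rapamycin and without it, and of 3418 and 4779 CPM in the number 2 libraries. EPCAM, CDH1 and SFN were at 157 CPM or more in every library, but in number 1 KRT14 was at 0, KRT6A at 0.421 and 4.39 CPM, KRT17 at 5.05 and 4.90 CPM and TP63 at 13.5 and 19.7 CPM. With rapamycin, 3 of the 8 fell in the test described next, KRT5 (log2 fold change -2.43, edgeR adjusted p = 6.06e-06), KRT6A (-5.46, adjusted p = 0.00374) and KRT14 (-2.85, adjusted p = 0.0327). Of the 6 fibroblast markers 3 passed the filter and COL1A2, COL3A1 and DCN were at 0, with a summed level of 46.6, 28.4, 35.8 and 8.78 CPM in rapamycin 1, rapamycin 2, control 1 and control 2. COL1A1 made up most of it in number 2, and was read at 29.3, 28.4, 22.0 and 8.79 CPM (log2 fold change 1.04, adjusted p = 0.0679). Of the 4 endothelial markers 3 passed, with KDR at 0 and a summed level of 1.42, 45.4, 1.71 and 30.8 CPM, nearly all of it CDH5 in number 2. None of the 6 leukocyte markers passed, with a summed level of 0.169 to 0.657 CPM. The part of these differences in the results below was not tested.

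Rapamycin was compared with control in edgeR's quasi-likelihood test with the number as a block, with 1 residual degree of freedom and Benjamini-Hochberg adjustment over all genes tested. This fit shares variance across genes, so a gene's standard error (SE) and p-value do not measure the spread between its own libraries alone. PSMB5, with a log2 difference of -0.64 in each pair, had an SE of 0.25. PSMD12, with -0.52 in pair 1 and -1.54 in pair 2, had an SE of 0.28. Values of 4 libraries are given below in the order rapamycin 1, rapamycin 2, control 1, control 2.

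With rapamycin, 4 of the 40 proteasome genes fell and 0 rose at an adjusted p under 0.05, where 3.5% of all genes tested fell and 4.65% rose. The genes that fell were PSMD1, PSMD3 and PSMD12 of the 19S particle and PSME3, an activator. At an unadjusted p under 0.05, 19 of the 40 were lower (10.5% of all genes tested) and 1, NFE2L1, was higher (13.1% of all genes tested). Without the block, edgeR's test called 0 members and 0 of all 15826 genes, with 446 genes and 2 members, both lower, at an unadjusted p under 0.05.

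The direction was shared more widely than the calls. Within both numbered pairs, the rapamycin library was lower than its control for 31 of the 40 genes, against 31.8% of all genes tested, and higher for 2, against 34.6%. The other 7 went in opposite directions in the pairs, against 33.6% of all genes tested. Both rapamycin libraries stood below both controls for 25 of the 40, against 16.5% of all genes tested. The median log2 fold change was -0.53 over the 40 genes, a 1.44-fold lower level, and 0.05 over all genes tested. Of all genes tested, 17.4% had a log2 fold change at or under the members' median. In bulk RNA, fewer cells of one kind and less RNA per cell cannot be told apart.

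**Figure D1:**
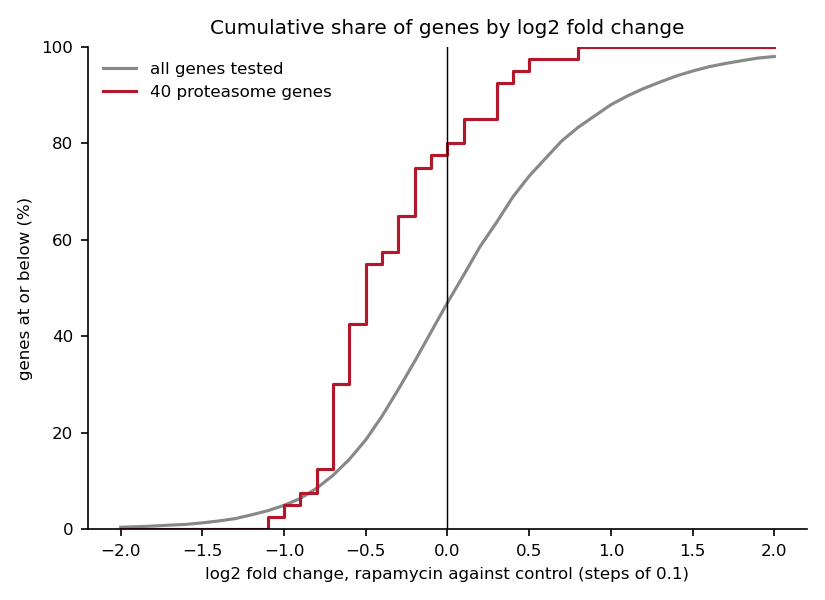
Cumulative share of genes (vertical axis, %) at or below each log2 fold change with rapamycin (horizontal axis, in steps of 0.1), for the 40 proteasome genes in red and all 15826 genes tested in grey. The red line lies above the grey one over most of the axis, with 32 of 40 proteasome genes below 0 against 47.0% of all genes tested.

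The 40 genes together held 0.550% and 0.488% of the counts of the rapamycin libraries and 0.703% and 0.645% of those of the controls. Their summed level was 5352, 5027, 7035 and 6470 CPM. Both rapamycin libraries were thus below both controls, with a ratio of rapamycin to control of 0.761 in pair 1 and 0.777 in pair 2. For the summed CPM of the 14 core subunits the ratio was nearly the same in both pairs, 0.734 and 0.729. The median log2 difference of the single core genes was -0.48 in pair 1 and -0.34 in pair 2. For the 17 19S subunits, the ratio of summed CPM was 0.711 in pair 1 and 0.578 in pair 2. For the 3 immunoproteasome subunits it was 0.759 and 1.61, below 1 in pair 1 and above 1 in pair 2.

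**Figure D2:**
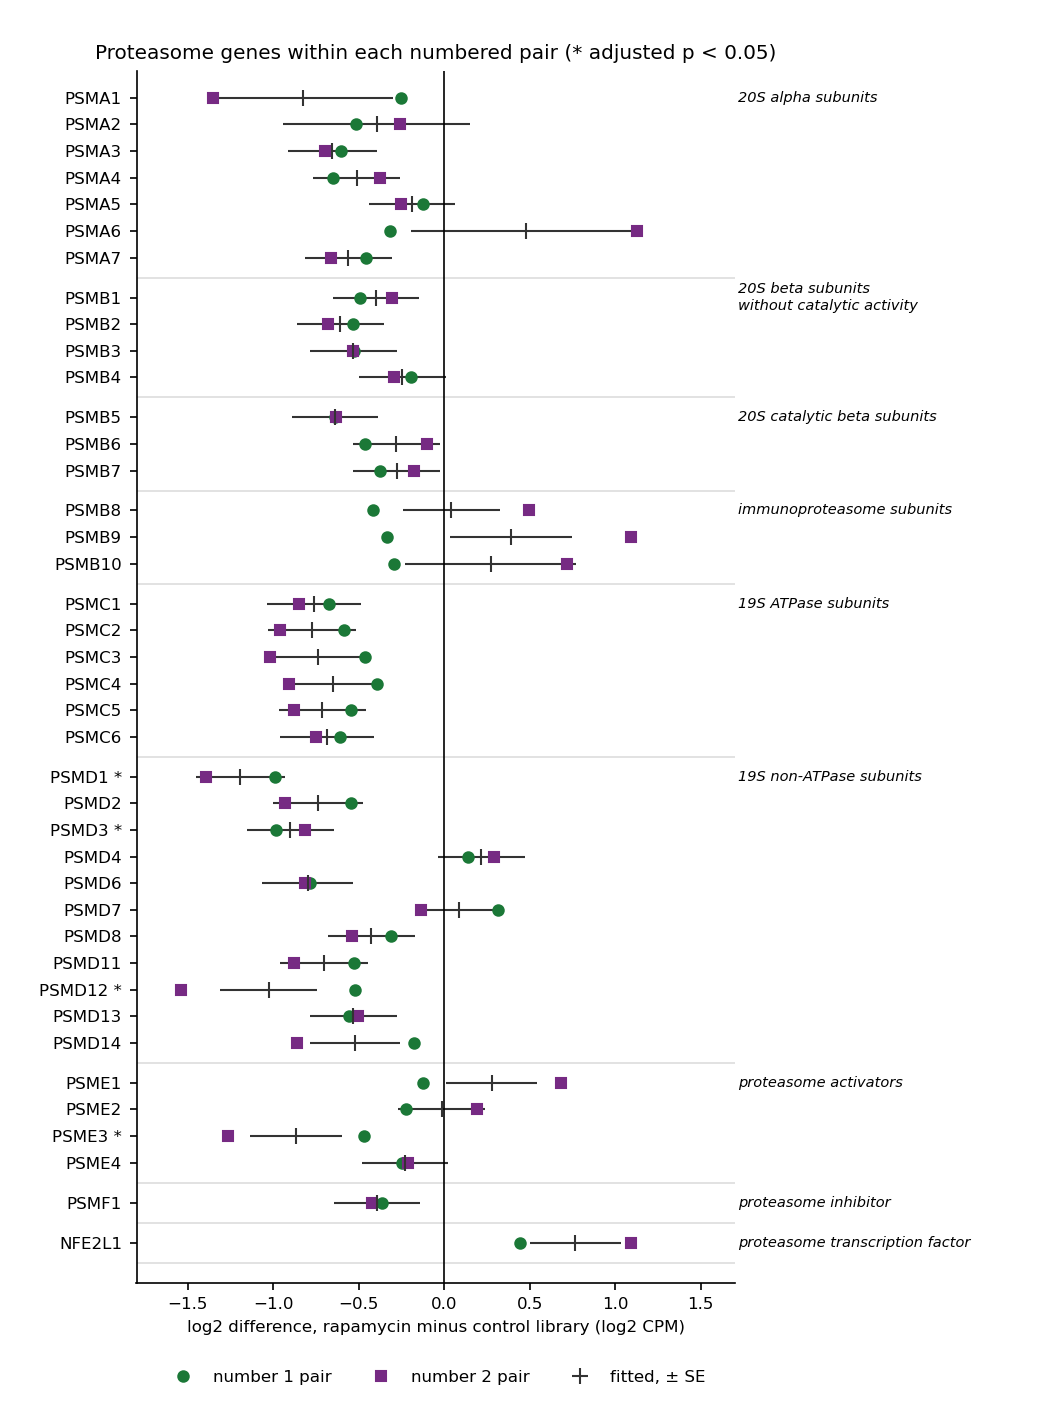
Log2 difference between the rapamycin and the control library (horizontal axis, log2 CPM) of the number 1 pair (green circles) and the number 2 pair (purple squares) for each of the 40 genes, grouped by role, with the fitted log2 fold change and its SE in black. Asterisks mark the 4 genes past an adjusted p of 0.05; the core and 19S genes lie mostly left of 0, and the 3 immunoproteasome genes lie on both sides of it.

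The 19S particle held 3 of the 4 genes that fell, and 15 of its 17 genes were lower in both pairs, with a median log2 fold change of -0.71. PSMD1, which encodes a large scaffold subunit of the 19S base (ENSG00000173692 in the table, on chromosome 2), was read at 133, 78.4, 264 and 206 CPM. Both rapamycin libraries were below both controls, and the gene was 2.29-fold lower (log2 fold change -1.19, SE 0.26, n = 2 libraries a group, edgeR adjusted p = 0.00631). PSMD3, a lid subunit, was read at 179, 159, 355 and 280 CPM, again without overlap between the groups. It was 1.87-fold lower (log2 fold change -0.90, SE 0.26, edgeR adjusted p = 0.0285).

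PSMD12, a further lid subunit, was read at 86.0, 37.6, 124 and 109 CPM. The groups did not overlap, and the library rapamycin 2 stood lowest, with a log2 difference of -0.52 in pair 1 and -1.54 in pair 2. The fitted level was 2.04-fold lower (log2 fold change -1.03, SE 0.28, edgeR adjusted p = 0.0255, and 0.0636 in DESeq2). PSMD1 and PSMD3 passed the threshold in all 5 alternatives that kept the block.

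The 6 ATPases PSMC1 to PSMC6, which form the unfolding ring, had similar fitted values. Each was lower in both pairs and each had an unadjusted p under 0.05, but none passed the adjusted threshold (edgeR adjusted p from 0.0605 to 0.122). Their log2 fold changes lay between -0.77 and -0.65, with SE of 0.26 to 0.27. Their summed level was 647, 392, 919 and 742 CPM. The sum was lowest in rapamycin 2, and only PSMC4 had groups that overlapped (142, 66.9, 187 and 125 CPM).

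Among the other 19S subunits, PSMD2, a scaffold subunit that receives ubiquitin-like domains, was read at 610, 422, 892 and 804 CPM (log2 fold change -0.74, edgeR adjusted p = 0.0779, and 0.0477 in DESeq2). PSMD6, a lid subunit, had 46.1, 52.8, 79.3 and 92.9 CPM (log2 fold change -0.80, edgeR adjusted p = 0.0596). PSMD14, the deubiquitinase of the lid, had 96.3, 71.2, 109 and 130 CPM and a log2 fold change of -0.52 (edgeR adjusted p = 0.231). In all 3 the rapamycin libraries lay below the controls, and in none was the main threshold passed.

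Outside that direction stood PSMD4 and PSMD7. PSMD4, a ubiquitin receptor, had 189, 132, 172 and 108 CPM, so that the groups overlapped while each rapamycin library was above its own control (log2 fold change 0.22, SE 0.25, edgeR adjusted p = 0.65). PSMD7, which pairs with PSMD14 in the lid, had 153, 150, 123 and 165 CPM, with a log2 difference of 0.31 in pair 1 and -0.14 in pair 2.

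In the 20S core, 13 of 14 subunits were lower in both pairs and 0 passed the adjusted threshold, with 5 at an unadjusted p under 0.05 and a median log2 fold change of -0.46. PSMB5, the subunit with the chymotrypsin-like site, was read at 106, 94.0, 166 and 146 CPM. Its groups did not overlap, and the log2 difference was -0.64 in each pair (edgeR log2 fold change -0.64, SE 0.25, adjusted p = 0.116). PSMB6, with the caspase-like site, had 114, 94.7, 157 and 102 CPM, and its groups overlapped (log2 fold change -0.28, adjusted p = 0.533). PSMB7, with the trypsin-like site, had 119, 106, 154 and 120 CPM, with both rapamycin libraries lower (log2 fold change -0.28, adjusted p = 0.535).

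The alpha subunits, which form the outer rings and the gate, included the genes with the fewest counts of the set. PSMA6 had only 13, 34, 19 and 19 counts, PSMA2 had 32, 59, 53 and 92, and PSMA1 had 60, 46, 82 and 156. The fitted SE of these 3 genes was 0.52 to 0.67 on the log2 scale, against 0.25 to 0.28 for most of the set. PSMA6 was the core subunit that was not lower in both pairs. Pseudogenes named for PSMA6 held 23.5% as many counts as the gene and those named for PSMC1 held 31.0%. Of the 40 genes, 16 overlap another RefSeq gene, among them PSMD1 (HTR2B), PSMA3 (PSMA3-AS1) and PSMB8 (PSMB8-AS1). Of the low-count genes, PSMA6 overlaps PRORP-PSMA6 and PSMA2 overlaps LOC105375252, while PSMA1 overlaps none. The part of read assignment in their low counts was not tested. The strand setting of the counting is not given in the sources used here, so reads of such neighbours cannot be told apart.

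The immunoproteasome genes went in opposite directions in the 2 pairs. PSMB8, which takes the place of PSMB5, was read at 45.1, 81.5, 60.2 and 57.8 CPM. PSMB9, which takes the place of PSMB6, had 13.5, 45.0, 17.0 and 21.0 CPM. PSMB10, which takes the place of PSMB7, had 1.26, 12.3, 1.57 and 7.48 CPM. In each, rapamycin 1 was the lowest library and rapamycin 2 the highest, and the edgeR adjusted p for rapamycin was 0.946, 0.546 and 0.787. The log2 differences in pair 1 were -0.42, -0.34 and -0.29, and in pair 2 they were 0.50, 1.09 and 0.72.

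Set against its constitutive counterpart within each library, on the CPM scale without correction for length, PSMB8 to PSMB5 was 0.424, 0.868, 0.363 and 0.396. PSMB9 to PSMB6 was 0.118, 0.475, 0.108 and 0.207. PSMB10 to PSMB7 was 0.0106, 0.116, 0.0102 and 0.0622. All 3 ratios were highest in the library rapamycin 2, and in pair 1 each was above that of the control library.

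The activators differed among themselves. PSME3 (PA28 gamma), a nuclear activator that works without ubiquitin, was read at 232, 139, 321 and 336 CPM. The groups did not overlap, with a log2 difference of -0.47 in pair 1 and -1.27 in pair 2, and it was 1.82-fold lower (log2 fold change -0.87, SE 0.27, edgeR adjusted p = 0.0448). It passed in only 1 of the 5 alternatives that kept the block, with adjusted p from 0.0173 to 0.0739. PSME1 and PSME2, the interferon-inducible pair that caps the core with PA28 alpha and beta, had 107, 178, 117 and 111 CPM and 103, 127, 121 and 112 CPM, highest in rapamycin 2 and lowest in rapamycin 1. Their edgeR adjusted p was 0.566 and 0.976. PSME4 (PA200) had 124, 111, 147 and 128 CPM and PSMF1, the inhibitor PI31, had 149, 171, 192 and 230 CPM. Both rapamycin libraries were below the controls for each, with log2 fold changes of -0.23 and -0.39 (edgeR adjusted p = 0.621 and 0.361).

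NFE2L1 was the 1 member whose rapamycin libraries stood above both controls. It was read at 474, 998, 349 and 469 CPM, with rapamycin 2 far above the rest and rapamycin 1 just above control 2. The log2 fold change was 0.77 (SE 0.27, edgeR adjusted p = 0.0724), with a log2 difference of 0.44 in pair 1 and 1.09 in pair 2. The difference did not pass the threshold, and its direction was opposite to that of the 31 genes lower in both pairs.

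**Figure D3:**
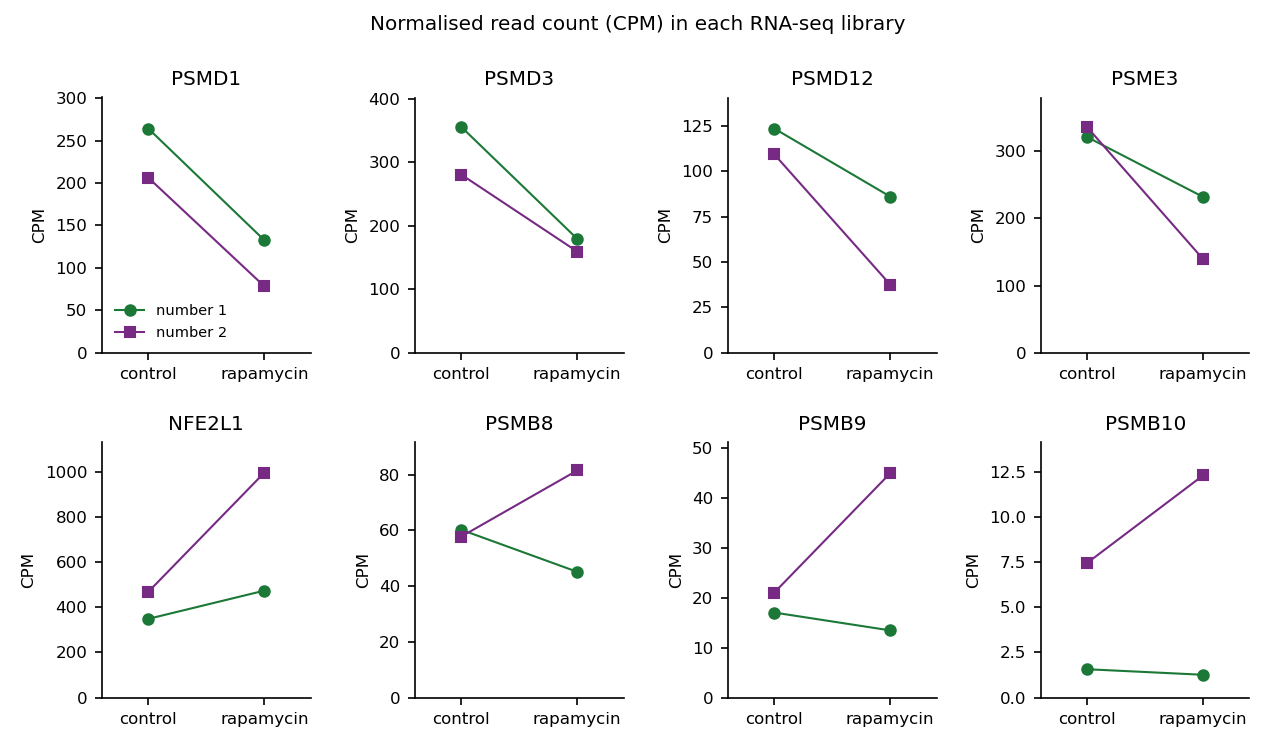
Normalised read count (vertical axis, CPM, from 0) in each control and rapamycin library for 8 genes, with lines joining the libraries of the same number. PSMD1, PSMD3, PSMD12 and PSME3 slope down in both pairs and NFE2L1 slopes up in both, while PSMB8, PSMB9 and PSMB10 slope down in pair 1 and up in pair 2.

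In the same fit, number 2 was compared with number 1. Here 4 members were higher, where 17.0% of all genes tested were, and 4 were lower, where 20.2% were. The 4 higher were PSMB10 (log2 fold change 2.76, edgeR adjusted p = 0.000104), PSMB9 (1.02, adjusted p = 0.0296), NFE2L1 (0.75, adjusted p = 0.0277) and PSMA4 (0.74, adjusted p = 0.024). The 4 lower were PSMD8 (-0.87, adjusted p = 0.00826), PSMC4 (-0.83, adjusted p = 0.0127), PSMB3 (-0.78, adjusted p = 0.0171) and PSMC3 (-0.72, adjusted p = 0.0298). PSMB10 was thus the member with the widest gap between the numbers, at 1.26 and 1.57 CPM in number 1 and 12.3 and 7.48 CPM in number 2. None of the 4 genes that fell with rapamycin differed between the numbers at the threshold.

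The genes that work with the proteasome were read from lists of 52 genes, of which 50 were tested. With rapamycin 1 fell and 2 rose in edgeR's blocked fit, and 21 were lower and 16 higher in both pairs. Of all genes tested, 3.5% fell and 4.65% rose, and 31.8% were lower and 34.6% higher in both pairs, so that the calls and the rises among these 50 were near the background. VCP, the ATPase that extracts ubiquitinated proteins and acts in the processing of NFE2L1, was read at 531, 327, 897 and 717 CPM, with no overlap between the groups (log2 fold change -0.94, SE 0.26, adjusted p = 0.0255). MAFK, a small MAF protein that pairs with NFE2L1 on DNA, was read at 98.2, 78.8, 59.0 and 34.5 CPM, higher in both rapamycin libraries (log2 fold change 0.96, SE 0.27, adjusted p = 0.0272). HLA-B, which presents peptides, was read at 311, 358, 211 and 169 CPM, also without overlap (log2 fold change 0.82, SE 0.26, adjusted p = 0.048).

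None of the 10 assembly chaperones passed the threshold, with 6 lower and 3 higher in both pairs and a median log2 fold change of -0.25. None of the 9 deubiquitinases and adaptors passed either, with 6 lower and 1 higher in both pairs and a median of -0.20, and none of the 6 ubiquitin and E1 genes, with 2 lower and 1 higher and a median of -0.06. The 12 antigen processing genes had a median log2 difference of -0.07 in pair 1 and 0.58 in pair 2. TAP1, the peptide transporter encoded beside PSMB8 and PSMB9, was read at 55.9, 146, 67.4 and 71.7 CPM, so that, as for those 2 genes, rapamycin 1 was lowest and rapamycin 2 highest (edgeR adjusted p = 0.479). The testis and thymus subunits PSMA8 and PSMB11 were below the filter.

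NFE2L1 binds proteasome promoters at antioxidant response elements, whose core was searched as TGACNNNGC on both strands of the RefSeq promoter windows (GRCh38.p14, 250 bases before to 50 after each start), which exist for 35 of the 40 genes. It lay in the windows of 11 of the 35 (31.4%), against 19.4% of 11397 tested genes with a window and 13.3% of all 35116 promoter windows. It was found for 3 of the 4 genes that fell. Of the 27 genes with a window that were lower in both pairs 8 had it, and of the 8 that were not 3 had it, PSMB9, PSME1 and PSME2. A match is a description of these letters and not a measured site. Some matches of genes lower in both pairs are shown, those of the 3 genes that fell, the core subunits PSMA4 and PSMB3 and the ATPase PSMC5. The matches of PSMC4 and PSME4, also lower in both pairs, are not shown, nor are those of PSMB9, PSME1 and PSME2. A link between a match and a lower level was not tested. The stretches shown are given 5′ to 3′ along the gene, with the matching letters in capitals.
PSMD1: aggaggcgacTGACTGAGCag
PSMD3: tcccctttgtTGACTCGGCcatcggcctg
PSMD12: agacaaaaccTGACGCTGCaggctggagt
PSMA4: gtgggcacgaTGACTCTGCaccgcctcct
PSMB3: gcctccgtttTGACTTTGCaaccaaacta
PSMC5: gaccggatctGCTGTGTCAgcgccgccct

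These stretches lie at chr2:231056896-231056916 for PSMD1 (plus strand), chr17:39980760-39980788 for PSMD3 (plus strand), chr17:67366724-67366752 for PSMD12 (minus strand), chr15:78540650-78540678 for PSMA4 (plus strand), chr17:38752627-38752655 for PSMB3 (plus strand) and chr17:63827654-63827682 for PSMC5 (plus strand). In PSMC5 the capitals are the core read on the opposite strand. The match in PSMD1 begins 40 bases after the start, in the transcribed part, and that in PSMD3 ends 29 bases before it. PSMD3 holds a second match after its start. The CCAAT box, searched as CCAAT on both strands, lay in the windows of 18 of the 35 genes (51.4%, against 42.8% of tested genes and 34.6% of all windows). The GC box, searched as GGGCGG, lay in 25 (71.4%, against 75.9% and 45.0%).

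m6A peaks were few on the proteasome genes. In the list of HSC3 control cells 3 of the 40 genes had a peak (7.5%), where 17.6% of all genes tested had one. The share was 7.5% in HSC3 cells with rapamycin (17.5% of genes tested), 10% in CAL33 control cells (16.1%) and 5.0% in CAL33 cells with rapamycin (14.2%). Over the 4 lists, 7 of the 40 genes had a peak, against 35.4% of all genes tested, and 33 had none. Each list comes from 1 immunoprecipitated library and its input, so no difference between lists was tested, and the depth of these libraries is unknown.

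Of the 21 peaks on members, 12 lay on NFE2L1, the only member with a peak in all 4 lists. The authors' fold enrichment (immunoprecipitated RNA over input, called on each pair separately) is given with its percentile within its own list, and positions are on hg38. High folds were also listed for genes without RNA-seq counts. COL1A2, at 0 counts in every RNA-seq library, had a fold of 409 (percentile 95.6) in CAL33 control cells. The folds and percentiles are therefore not read here as amounts of m6A. A peak in the 3′ part of NFE2L1 was in every list. It had a fold enrichment of 64.2 (percentile 64.3) at chr17:48059456-48059904 in HSC3 control cells and 45.9 (percentile 58.6) at chr17:48059546-48059844 in HSC3 cells with rapamycin. In CAL33 control cells it had a fold of 5.24 (percentile 7.28) at chr17:48059456-48059665, and in CAL33 cells with rapamycin a fold of 35.8 (percentile 49.98) at chr17:48059516-48059844. The lists annotate it as 3′ UTR, except that of CAL33 control cells, which gives the coding sequence (CDS). The fold was lower with rapamycin in HSC3 and higher in CAL33, in lists without replicates.

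The coding part of NFE2L1 carried the highest fold of the gene, 111 (percentile 71.6), at chr17:48058709-48058889 in CAL33 control cells. In HSC3 control cells, an overlapping CDS peak at chr17:48058381-48058829 had a fold of 29.9. In HSC3 cells with rapamycin, 2 separate peaks overlapped that region, with folds of 5.92 and 6.52. Another CDS peak of that list, at chr17:48058978-48059307, had a fold of 4.25 (percentile 4.38). The CDS peak of CAL33 cells with rapamycin, at chr17:48059068-48059217, had a fold of 6.36 (percentile 9.79) and lay within it. These overlapping peaks of the rapamycin lists met no peak of either control list, again in lists without replicates. A 5′ UTR peak with a fold of 41.3, at chr17:48050616-48050975, was listed only in HSC3 cells with rapamycin. A further 3′ UTR peak, nearer the 3′ end at chr17:48060710-48060860, was listed only in CAL33 cells with rapamycin (fold 2.11, percentile 1.07).

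**Figure D4:**
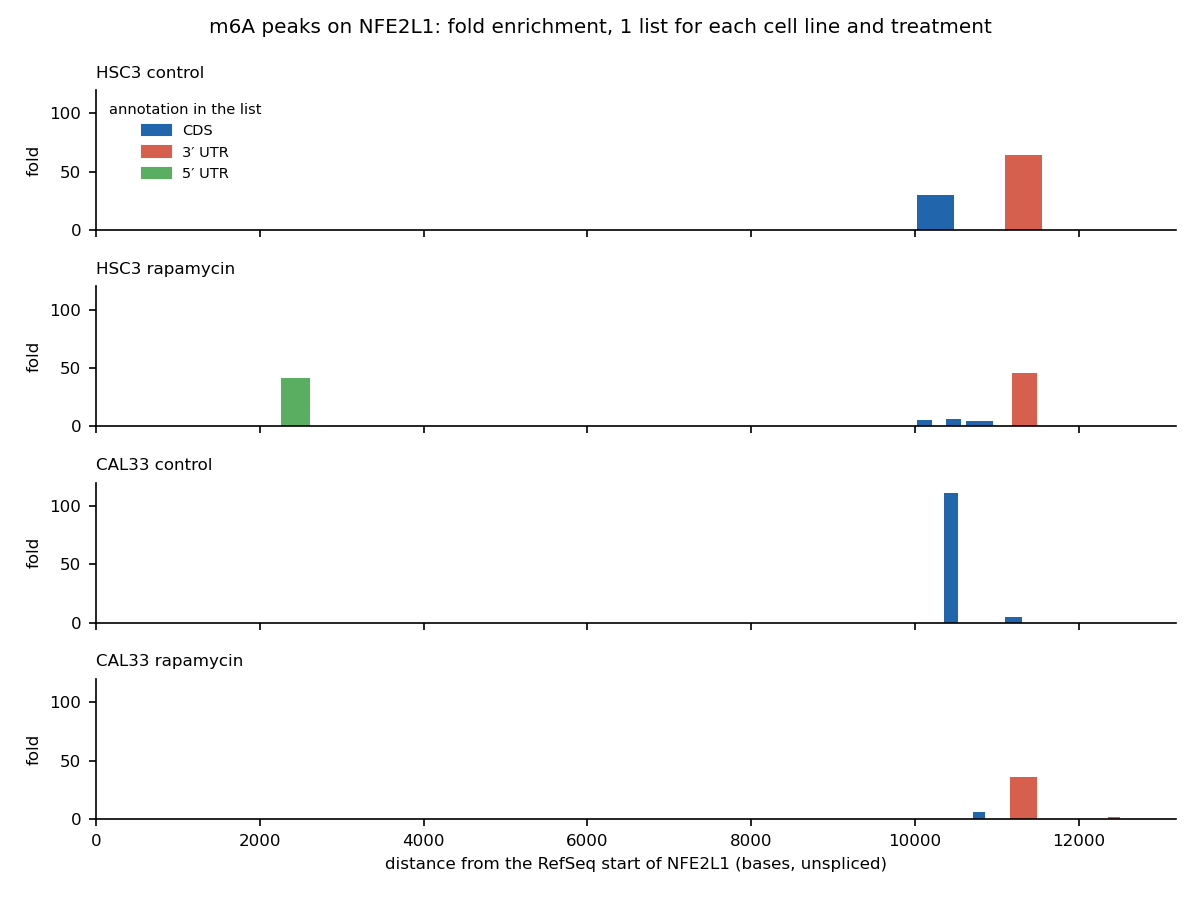
Fold enrichment (vertical axis) and position (horizontal axis, bases from the RefSeq start of NFE2L1 along the unspliced gene) of the 12 m6A peaks on NFE2L1 in the 4 lists, coloured by the region that the list gives. Every list holds a peak that starts 11097 to 11187 bases from the start, at folds of 64.2, 45.9, 5.24 and 35.8 from top to bottom.

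The other 9 peaks lay on 6 genes, and 0 of these 9 overlapped a peak of another list, against 10 of the 12 on NFE2L1 and 48.9% of all 14586 peaks. PSMF1 had a 3′ UTR peak in both rapamycin lists, with a fold of 43.7 in HSC3 and of 177 in CAL33, at neighbouring positions. PSMC1 had a 3′ UTR peak with a fold of 46.5 in HSC3 cells with rapamycin and another with a fold of 53.2 in CAL33 control cells. PSMD7 had a 3′ UTR peak (fold 175) and PSMD2 a CDS peak (fold 6.63) in CAL33 control cells. PSMB4 had 2 exonic peaks (folds 11.2 and 16.8) and PSME3 a 5′ UTR peak (fold 2.26, percentile 1.97) in HSC3 control cells.

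Of these 6 genes, PSMC1 was read at 49.3, 32.9, 78.7 and 59.3 CPM (log2 fold change -0.76, edgeR adjusted p = 0.0824), with both rapamycin libraries lower. PSMB4, a structural subunit of the core, was read at 168, 176, 192 and 216 CPM, also without overlap (log2 fold change -0.24, edgeR adjusted p = 0.599). Of the 4 genes that fell with rapamycin, PSME3 alone had a peak, and the immunoproteasome and alpha subunits had none. In the list of genes for NFE2L1 processing and partners, 8 of 11 had a peak in at least 1 of the 4 lists, among them VCP and MAFK, where 35.4% of all genes tested had one. The count was 4 of 9 for the deubiquitinases and adaptors, 3 of 6 for ubiquitin and E1, 4 of 12 for antigen processing, 2 of 10 for the assembly chaperones and 0 of 4 for the other subunits. Among the antigen processing genes, the only peak of TAP1, in CAL33 control cells, had a log10 false discovery rate of -0.491, which is above a rate of 0.05.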

How the data were processed

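RNA-seq and MeRIP-seq values deposited for OSCC cells were used. Gene counts were deposited as whole reads, without normalization. The submitters' processing notes name hg38, cutadapt 2.5, HISAT2 2.1.0, featureCounts 1.6.3 and HOMER 4.10.4, while the table is named for HTSeq. The m6A peaks were deposited as 1 list for each immunoprecipitated library with its input, giving a fold enrichment (a ratio), a log10 p-value, a log10 false discovery rate (log10 scale) and a score; the peak caller and its settings are not given in the sources used here.

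The members and gene lists were chosen with earlier results of these data known. Values in every library are given for members past the threshold, NFE2L1, the catalytic and immunoproteasome subunits, members with a peak and, beyond that rule, for members chosen after their values were seen. Counts were fitted in edgeR 4.0.16 (R 4.3.3; filterByExpr, TMM, robust quasi-likelihood) with the library number as a block. Within-pair differences are of log2 CPM with a prior count of 2. The number was taken as pairing because it marks the cell line in MeRIP-seq. Same-numbered libraries correlated at 0.956 to 0.966 in log2 CPM across genes and others at 0.761 to 0.811, and the difference between the numbers correlated at 0.90 between treatments across genes. Common dispersion was 0.0610 with the block and 0.636 without it. Alternatives used DESeq2 1.42.0, other scaling and filters, no block, and each library left out. On simulated data, 119 of 189 tested genes changed 3-fold were recovered with 3 false calls among 15557 genes, and with no changed gene 0 of 15573 were called. The simulation used the means and dispersions of the fitted model, with the same change in both pairs. It therefore cannot show how often calls are false where the pairs respond differently or where libraries share a culture. The largest change of a member was 2.29-fold (PSMD1) and the median 1.44-fold, so recovery at the size of the members' changes was not tested.

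Totals of 18492273 to 23763098 counts per library limit the precision of low genes. Peaks were assigned by Ensembl identifier and promoters by symbol, in Python 3.11.15. Sequences under the peaks and protein sequences were not used here.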

Additional observations from a re-analysis of the deposited data

Results flagged for a closer look

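For 7 of the 40 genes, both numbered pairs moved in opposite directions with rapamycin. Each pair is 1 rapamycin and 1 control library, so the difference between the pairs was not tested, and opposite directions were found for 33.6% of all genes tested. The log2 difference of pair 2 minus that of pair 1 was 1.43 for PSMB9 (-0.34 in pair 1 and 1.09 in pair 2), 1.01 for PSMB10 (-0.29 and 0.72) and 0.91 for PSMB8 (-0.42 and 0.50), the immunoproteasome subunits. It was 0.81 for PSME1 (-0.13 and 0.68) and 0.41 for PSME2 (-0.22 and 0.19), the interferon-inducible activator. It was 1.44 for PSMA6 (-0.32 and 1.12), on 13 to 34 counts per library. PSMD7 went the other way, with -0.45 (0.31 and -0.14).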

How the results depend on the processing

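Without the replicate block, 0 members were lower in edgeR's fit, in place of 4, and the adjusted p of PSMD1, PSMD3, PSMD12 and PSME3 rose to 0.9997. With the block kept, 3 members were called lower with DESeq2, namely PSMD1, PSMD2 and PSMD3. A different 3, PSMD1, PSMD3 and PSMD12, were called with its size factors, upper-quartile scaling or at least 10 counts in every library. Without a filter 6 were called, where PSMC2 and PSMD6 joined the 4 of the main fit. DESeq2 gave no adjusted p for PSMA1, PSMA2 and PSMA6. Of the other 237 fold changes of single members under alternatives with a test, 223 kept their direction and side of the threshold, 9 lost it, 3 gained it and 2 reversed, both of PSME2, at 0.058 with upper-quartile scaling and 0.0095 with at least 10 counts in every library. The members' median log2 fold change was -0.45 with upper-quartile scaling, which moved the median of all genes to 0.13 (0.12 without a filter), and between -0.54 and -0.46 with 1 library left out. That left-out fit has no residual degrees of freedom under the block and gives no test. Its estimate for rapamycin comes from the complete pair alone. The range thus repeats the medians within the pairs, -0.46 in pair 1 and -0.54 in pair 2, and is no separate check. For number 2 against number 1 the members' median of -0.16 became -0.22 with upper-quartile scaling. It lay between -0.20 and -0.11 with 1 library left out, where it comes from the libraries of a single treatment and is again no separate check. The count of 31 genes lower in both pairs was 31 under 3 scalings added after the data were seen. For the peaks, a false discovery rate of at most 0.05 or matching by symbol gave the same counts of member genes, and requiring 50% of the shorter peak left 11 of 11 overlaps. With a fold of at least 4, PSME3 dropped out and HSC3 control cells had 2 member genes with a peak in place of 3. Low counts limit PSMA1, PSMA2, PSMA6 and PSMB10, and 2 libraries a group limit every call.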

Other observations

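Of the ubiquitin genes, UBB was read at 761 and 673 CPM in the number 1 libraries (rapamycin, control) and at 1.32 and 1.44 CPM in the number 2 libraries. The peak list of CAL33 cells with rapamycin held 2 UBB peaks, with folds of 10.7 and 34.8. That list also held a CDH5 peak (fold 102), and CDH5 was read at 0.684 and 0.877 CPM in number 1 and at 41.6 and 25.6 CPM in number 2. Peaks were also listed on genes at 0 counts, such as COL1A2. The cell line of number 2 was not tested. MAFF, a further small MAF partner of NFE2L1, was read at 147 and 65.8 CPM with rapamycin and at 83.5 and 6.63 CPM without it (log2 fold change 2.02, SE 0.83, edgeR adjusted p = 0.299). The chaperone PSMD9 was lower in number 2 than in number 1 (log2 fold change -1.96, SE 0.53, edgeR adjusted p = 0.00445).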
